A study of Sparus aurata with 5 samples.

Results

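The genes cldn4l and cldn7b encode claudins of the gilthead seabream (Sparus aurata) and were 2 of the 14 target genes, and 2 of the 7 claudins, whose mRNA was quantified in the anterior intestine by real-time qPCR. They were taken by name, as a pair of claudins with a mean quantification cycle below 25 over all fish, a low cycle meaning much template. The members were therefore chosen on their measured level, and that level is given only as a description.

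Juvenile fish were fed 1 of 5 diets, with 12 fish measured for each diet and 60 in all. CT was the control diet without additive, GB5 and GB10 held LB-GREENboost at 0.5% and 1%, and GH5 and GH10 held LB-GUThealth at 0.5% and 1%. Both additives are functional ingredients that contain hydrolysed microalgal biomass, and all groups shared the basal feed, the rearing and the sampling after a fast at the end of the trial. By the study's methods, LB-GREENboost holds a larger share of this biomass than LB-GUThealth. The remainder of each includes choline, calcium carbonate and betaine as excipients. Equal inclusion was therefore not equal algal content, and ingredient, algal content and excipient content cannot be told apart. Each fish was a separate tissue sample, several fish shared a tank, and no file gives the tank a fish came from. The p-values therefore treat fish as independent, which makes them too small where tanks differ.

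Claudins are membrane proteins of the tight junction, the seal between neighbouring epithelial cells, and their extracellular loops decide which ions and small molecules pass between the cells. Some claudins close this paracellular route and others form pores in it, so that the mixture made by an epithelium is known to shape its permeability. In mammals claudin-4 is mostly described as a sealing claudin, and claudin-7 is abundant in the intestine, where its loss in mice damages the mucosa. The roles of the seabream genes are inferred from such relatives.

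The sequence record given for cldn4l matched 1 gene of the RefSeq annotation of the assembly fSpaAur1.1, which carries the symbol cldnk there and lies between rsad1 and btr02. In zebrafish a claudin of that name is known from myelinating glia. The record given for cldn7b matched no gene of that annotation, so that its place there was not determined. The study states that the PCR products were cloned and that Sanger sequencing verified them, which was not re-examined here. None of the 14 target genes defines the anterior intestine, and the labelled tissue was not checked by markers.

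Both genes were measured in every fish. The mean cycle of cldn7b was 24.5 ± 0.411 and that of cldn4l was 24.97 ± 0.335 (SD, n = 60 fish), against 18.7 ± 0.390 for eef1a, the translation elongation factor used as the reference gene. In order of cycle, oclnc (24.2) and cldn15 (24.3, 59 fish) came before cldn7b and cldn4l, and igm (25.1) followed. Thus cldn4l lay just inside the limit of 25 and igm just outside it, and oclnc and cldn15 lay below it without being members. Of the 60 igm cycles, 20 are identical to the cldn15 cycle listed for the same fish, so that the mean of igm is uncertain. The remaining claudins cldn5, cldn24, cldn3 and cldn4 had mean cycles between 28.1 and 32.6. Cycles of different genes also depend on the primers, so that this order is not an order of mRNA copies.

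To ask whether diet changed each gene, relative mRNA expression was compared, a ratio to the eef1a level in that fish and to the average of the CT group. For cldn4l the lowest, median and highest relative expression were 0.584, 0.896 and 1.81 in CT, 0.588, 0.889 and 1.35 in GB5, and 0.576, 0.682 and 1.26 in GB10. They were 0.449, 0.737 and 0.933 in GH5 and 0.488, 1.01 and 1.99 in GH10. The GH5 fish had the lowest mean and the least scatter, while the lowest median was that of GB10. GH10, the higher dose of the same ingredient as GH5, was about as high as CT and spanned a wider range. Every pair of groups overlapped. In GH5, 11 of 12 fish lay below the CT median and 3 below the lowest CT fish. In GH10, 7 of 12 fish lay above the highest GH5 fish, while 3 lay below the lowest CT fish. In bulk tissue, fewer epithelial cells and less mRNA per cell cannot be told apart.

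The mean relative expression of cldn4l was 1.00 ± 0.341 in CT, 0.916 ± 0.216 with GB5, 0.785 ± 0.225 with GB10, 0.706 ± 0.149 with the GH5 diet and 1.01 ± 0.416 with the GH10 diet (SD, n = 12 fish each). A one-way permutation test on log2 relative expression gave p = 0.0436 for a difference among the 5 diets (0.539 after Benjamini-Hochberg adjustment over the 14 genes). It was the only gene under 0.05 of 14 (7.14%), a share near what a threshold of 0.05 calls without any difference. The call depended on single fish: leaving out any 1 of 24 of the 60 fish brought p above 0.05, with a highest p of 0.0886 without fish A4 of GH5.

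The interaction asks whether the dose changed expression differently with each ingredient. Between 1% and 0.5%, log2 expression of cldn4l differed by -0.23 (SE 0.148) with LB-GREENboost and by 0.44 (SE 0.197) with LB-GUThealth. The opposite dose differences gave an interaction of 0.67 (SE 0.246, n = 48 fish, two-sided permutation p = 0.00918, adjusted over 14 genes 0.129). Of the 14 genes, cldn4l alone was under 0.05 before adjustment (7.14%), and p stayed between 0.00291 and 0.0181 when each of the 48 fish was left out. Single genes as the reference are given below, and over cldn3 the sign turned (-0.53). Among 13 other alternatives the call was lost in 4, with the sign kept in each. Of these, 1 used a second list of eef1a cycles (0.24, permutation p = 0.475), which holds the eef1a cycles in another order of fish and is described below. The interaction was 0.36 on cycles without a reference, sign turned (permutation p = 0.0641), and 0.55 over the mean of 8 other target genes (permutation p = 0.207). Among the supplemented fish with a relative expression of every gene it was 0.57 (permutation p = 0.0641). The 45 such fish over all diets include CT fish. Averaged over dose, the ingredients differed by -0.04 (LB-GUThealth minus LB-GREENboost, permutation p = 0.777), and the supplemented fish differed from CT fish by -0.23 (SE 0.146, permutation p = 0.123).

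Among the 10 pairs of diets, 3 differed in cldn4l at an unadjusted p under 0.05, against 5.71% of 140 pairs over all genes, and none after adjustment over the 10 pairs. All 3 include GH5, so that they are not independent, and they are counted among the 140 pairs. The GH5 fish lay below the CT fish by -0.46 on the log2 scale (95% interval -0.82 to -0.11, two-sided permutation p = 0.0116, adjusted 0.0803). The GH10 fish lay above the GH5 fish by 0.44 (0.08 to 0.79, permutation p = 0.0171, adjusted 0.115). At the same inclusion of 0.5%, GH5 differed from GB5 by -0.37 (-0.72 to -0.02, permutation p = 0.0422, adjusted 0.239). At 1%, GH10 differed from GB10 by 0.30 (-0.06 to 0.65, adjusted permutation p = 0.449). The ingredients therefore stood in opposite order at the lower and the higher dose, and neither pair passed the adjusted test.

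For cldn7b the groups lay closer together. The lowest, median and highest relative expression were 0.449, 0.916 and 1.97 in CT, 0.409, 0.850 and 1.08 in GB5, and 0.488, 0.907 and 1.12 in GB10. They were 0.540, 0.848 and 1.38 in GH5 and 0.540, 0.932 and 1.78 in GH10. All medians lay within the CT range, no supplemented fish exceeded the highest CT fish, and values above the highest GH5 fish occurred in CT and GH10 alone. In GB5, 8 of 12 fish lay below the CT median, against 6 in GB10, 7 with the GH5 diet and 6 with the GH10 diet.

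The mean relative expression of cldn7b was 1.00 ± 0.424 in CT, 0.801 ± 0.191 with GB5, 0.853 ± 0.225 with GB10, 0.891 ± 0.242 with the GH5 diet and 1.04 ± 0.427 with the GH10 diet (SD, n = 12 fish each). No difference among the 5 diets was detected (one-way permutation p = 0.516, adjusted over 14 genes 0.722). The dose differences, 1% minus 0.5%, were 0.08 (SE 0.169) with LB-GREENboost and 0.17 (SE 0.201) with LB-GUThealth, and their interaction was 0.08 (SE 0.262, permutation p = 0.751). The ingredients differed by 0.19 (SE 0.131, permutation p = 0.149). None of the 10 pairs of diets was under 0.05 before adjustment, with adjusted permutation p between 0.507 and 0.998. Against CT, the 95% intervals of the log2 difference were -0.65 to 0.15 for GB5, -0.57 to 0.23 for GB10, -0.50 to 0.30 for GH5 and -0.33 to 0.46 for GH10, so that the log2 difference of -0.46 measured for cldn4l between GH5 and CT lay inside the first 3 of them.

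**Figure D1:**
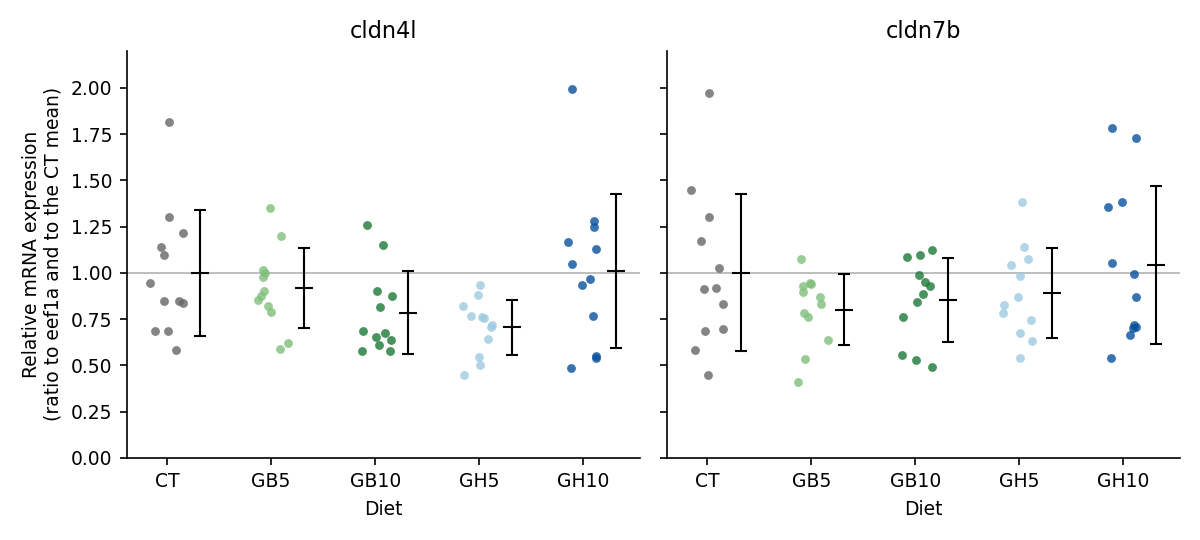
Relative mRNA expression (ratio to eef1a and to the CT mean) of cldn4l and cldn7b in each fish by diet, with the mean and SD of 12 fish beside the points. The cldn4l values of GH5 stop at 0.933 while those of GH10 reach 1.99, and the cldn7b groups overlap throughout.

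The other genes of the tight junction gave few calls in the same tests. Of the 8 other claudins and occludins, none was under 0.05 in the one-way or the interaction test. The gene cldn5 was under 0.05 for ingredient (higher with LB-GUThealth) and oclnl for supplemented against CT (lower). The occludins have their own list of eef1a cycles, with the same 60 values as the list of the other genes. Only 15 of these stand under the same diet in both lists, so that the diet tests of the occludins are uncertain. None of the 4 immune genes igm, cd4, il10 and tlr9 was under 0.05 in the one-way, interaction, ingredient, dose or supplemented test. Here igm includes 20 cycles identical to those of cldn15. Over the 14 genes no call held after Benjamini-Hochberg adjustment.

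The cycles were then examined without the reference gene. The mean cycle of cldn4l was 24.8 ± 0.279 in CT, 24.8 ± 0.365 with GB5, 25.1 ± 0.246 with GB10, 25.1 ± 0.373 with the GH5 diet and 25.01 ± 0.329 with the GH10 diet (SD, n = 12 fish each). For cldn7b it was 24.5 ± 0.341 in CT, 24.6 ± 0.568 with GB5, 24.5 ± 0.344 with GB10, 24.4 ± 0.354 with the GH5 diet and 24.6 ± 0.434 with the GH10 diet. The cycle of eef1a was 18.6 ± 0.212 in GH5 and 18.9 ± 0.480 in GH10, the lowest and the highest of the 5 diets. The cldn4l cycle thus differed by -0.10 (SE 0.143) between GH10 and GH5, and eef1a by 0.34 (SE 0.151), and both differences enter the relative expression. Between GB10 and GB5 the cldn4l cycle differed by 0.265 (SE 0.127) and eef1a by 0.03 (SE 0.136). In cycles alone the larger dose difference of cldn4l was therefore with LB-GREENboost, whereas in relative expression it was with LB-GUThealth.

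The interaction in the cycles was -0.36 (SE 0.192, permutation p = 0.0641) for cldn4l and 0.31 (SE 0.203, permutation p = 0.139) for eef1a, and the interaction of 0.67 in relative expression is the difference of these values with the sign turned. For cldn7b it was 0.22 (SE 0.251, permutation p = 0.389), the same direction as eef1a. The part of eef1a in the cldn4l result was not tested further than by replacing it as the reference.

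When eef1a was replaced by each of 9 other target genes in turn, the interaction of cldn4l was positive for 8, with a median of 0.43 and a range from -0.53 over cldn3 to 0.97 over cldn24. It was under 0.05 over cldn7b only (permutation p = 0.0380). For cldn7b the interaction over the same kind of references was positive for 3 of 9, with a median of -0.18 and a range from -1.02 over cldn3 to 0.38 over cldn24. The standard errors ran up to 0.970 where the reference itself scattered widely, as for cldn3, cldn4, tlr9 and il10. The reference genes are themselves measured in the same fish, and the 9 values of a gene share its own cycles.

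**Figure D2:**
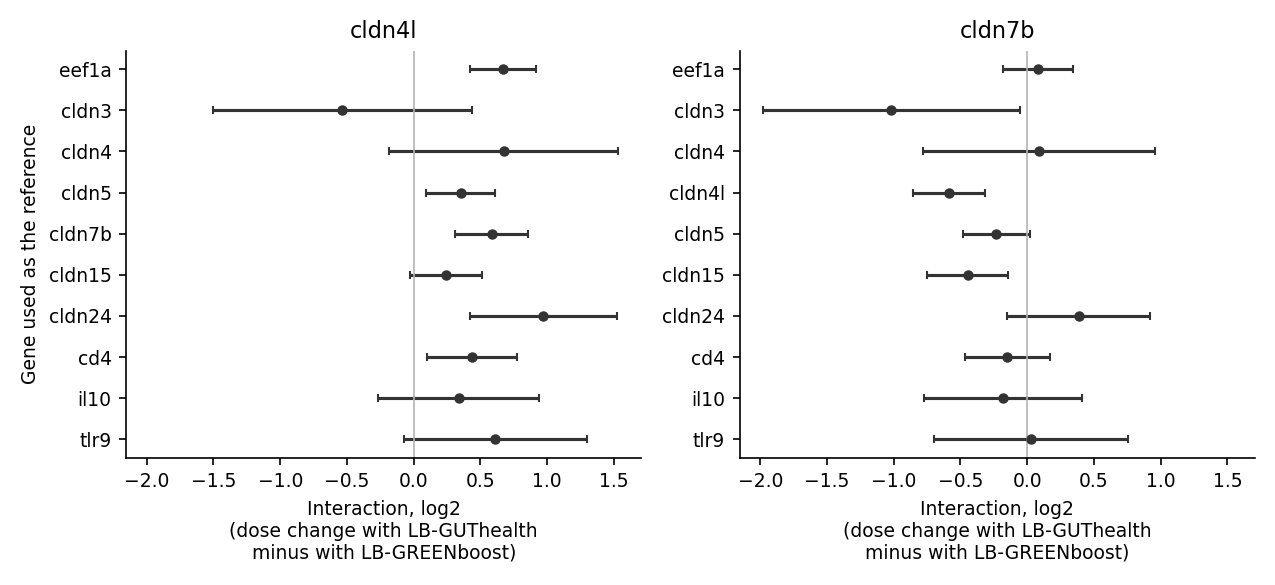
Interaction of ingredient and dose (log2, dose difference with LB-GUThealth minus that with LB-GREENboost) of cldn4l and cldn7b over eef1a and over each of 9 other genes, with bars of 1 SE. The points of cldn4l lie right of 0 except over cldn3, and those of cldn7b lie on both sides.

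The ratio of the members within each fish does not involve eef1a. It was taken as the cycle of cldn4l minus that of cldn7b, so that a higher value means more cldn7b template relative to cldn4l. The lowest, median and highest difference were -0.27, 0.43 and 1.07 cycles in CT, -0.65, 0.29 and 0.98 in GB5, and 0.04, 0.46 and 1.11 in GB10. They were -0.38, 0.86 and 1.29 in GH5 and -0.42, 0.49 and 1.11 in GH10. The GH5 fish held the highest ratios and the GB5 fish the lowest, with wide overlap. The cldn7b cycle was the lower of the pair in 50 of 60 fish, in 9 of 12 in CT, 8 with GB5, 12 with GB10, 11 with the GH5 diet and 10 with the GH10 diet. A gap of more than 1 cycle occurred in 11 fish, 5 of them in GH5 and none in GB5.

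The mean cycle difference was 0.37 ± 0.44 in CT, 0.21 ± 0.48 with GB5, 0.53 ± 0.41 with GB10, 0.73 ± 0.52 with the GH5 diet and 0.46 ± 0.48 with the GH10 diet (SD, n = 12 fish each). A difference among the 5 diets was not detected (one-way permutation p = 0.102). The ratio differed between 1% and 0.5% by 0.32 (SE 0.181) with LB-GREENboost and by -0.27 (SE 0.204) with LB-GUThealth. This is the direct test of whether the dose acted differently on the members with each ingredient, and the interaction was -0.59 (SE 0.273, two-sided permutation p = 0.0380). It had the smallest p of the 45 ratios between pairs of 10 target genes, of which 2.22% were under 0.05, and the adjusted p over those pairs was 0.895. At 0.5%, GH5 exceeded GB5 by 0.52 cycles (95% interval 0.14 to 0.90, permutation p = 0.00888, adjusted over 10 pairs 0.0624). At 1%, GH10 differed from GB10 by -0.06 (-0.45 to 0.32, adjusted permutation p = 0.997). The GH5 fish differed from the CT fish by 0.36 (-0.02 to 0.74, adjusted permutation p = 0.330). The p of this interaction was above 0.05 on leaving out any 1 of 17 of the 48 fish, at most 0.0662 without fish A5 of GB5. It was 0.140 by permutation in the supplemented fish with a relative expression of every gene.

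**Figure D3:**
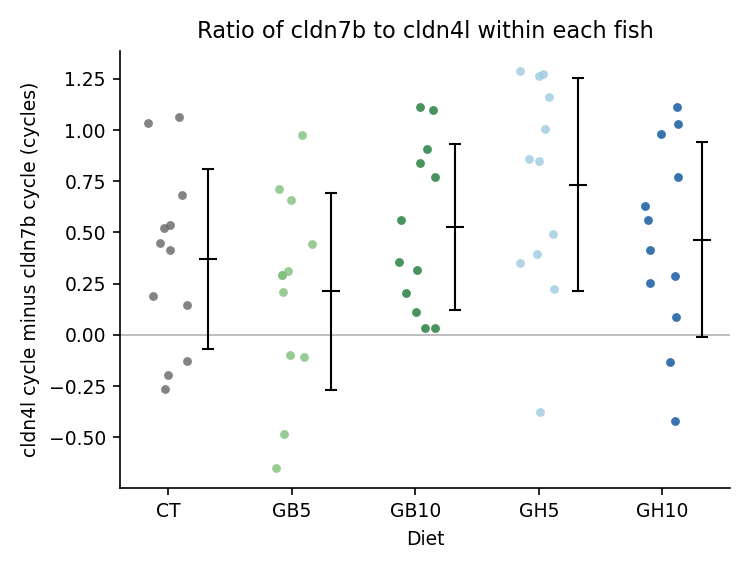
Cycle of cldn4l minus cycle of cldn7b in each fish by diet, in cycles, with the mean and SD of 12 fish beside the points. Most fish lie above 0, GH5 has the highest mean (0.73) and GB5 the lowest (0.21).

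Each fish has a row label, A1 to A12, that recurs in every diet, and the ratio went with that label in all 5 diets. The mean ratio over diets lay between -0.10 and 0.37 cycles for A1 to A6 and between 0.53 and 0.94 for A7 to A12, with no overlap of these means. It was lowest for A2 (single fish from -0.38 to 0.09) and highest for A11 (0.66 to 1.11). The label accounted for 55.8% of the variance of the ratio within diets (permutation of labels within diets, p = 8.0e-05, adjusted over 45 gene pairs 0.0036). This was the only one of the 45 ratios called after adjustment (2.22%), and 8.89% were under 0.05 before it. Between diets, the ratios of fish with the same label correlated with r from 0.17 to 0.66 (median 0.49) and were positive in 10 of 10 pairs of diets, each over 12 labels. The pattern was seen in the data before it was tested.

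The mean cycle of cldn7b over diets lay between 24.6 and 24.8 for A1 to A6 and between 24.2 and 24.4 for A7 to A12. That of cldn4l ran from 24.7 for A2 to 25.3 for A11, and its means for A1 to A6 and for A7 to A12 overlapped. Neither gene alone differed among labels by the test: the label accounted for 24.8% of the variance within diets for the cldn4l cycle (permutation p = 0.249) and for 30.5% for cldn7b (permutation p = 0.0897). Of the 14 genes it was called for igm alone (7.14%), with 51.3% of the variance (permutation p = 0.00046), and 20 igm cycles equal the cldn15 cycle of the same label and diet, all of them in A9 to A12. Fitting 12 label means takes up part of the variance of any gene without a pattern. Apart from igm, the shares among the 14 genes ran from 11.5% for oclnb to 30.5% for cldn7b, with cd4 next at 29.5%. The files do not say what a row label stands for, and whether it marks a tank, a plate position or a sampling order was not tested.

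With the label as a block, diets were permuted within a label. The one-way permutation p of the ratio was then 0.0107. Its ingredient difference (LB-GUThealth minus LB-GREENboost 0.23 cycles) had permutation p = 0.0452, and neither was called without the block. The interaction of the ratio had p = 0.0106 by the same permutation. This block was chosen after seeing the data, because this same ratio varied with the label. Taking out that variance lowers the p-values of the ratio by selection, so that they are a description. For cldn4l the blocked one-way p was 0.0404 and the blocked interaction p was 0.00645 by permutation, and no call changed for cldn7b.

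**Figure D4:**
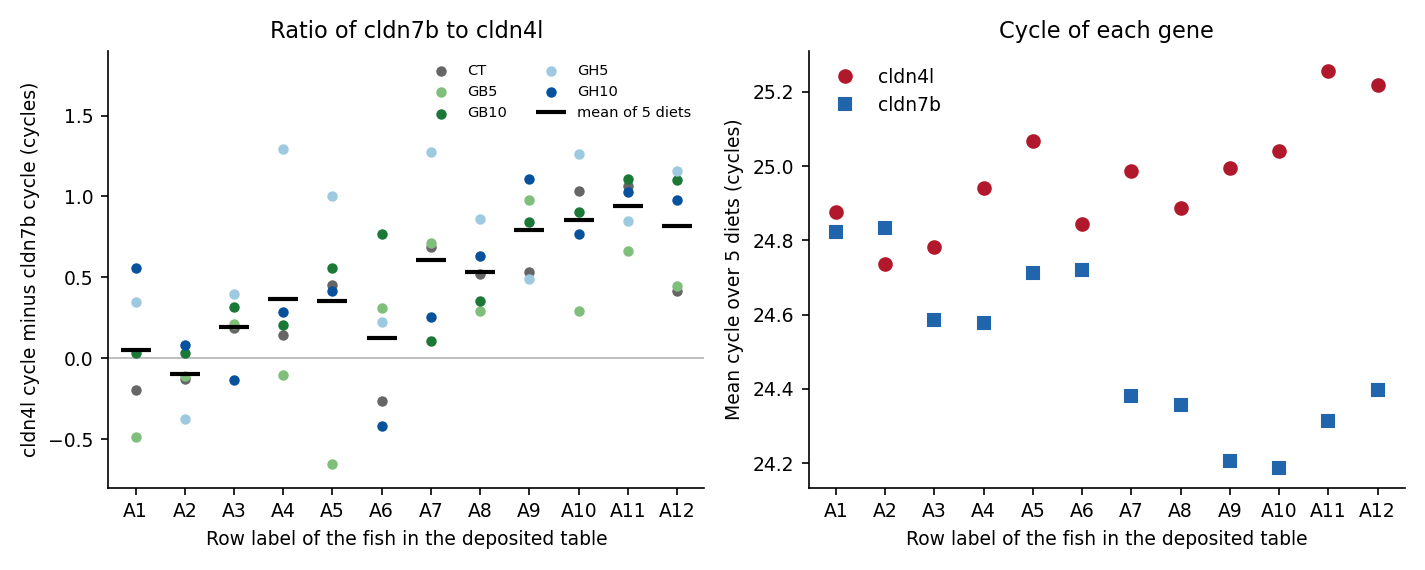
Left, cycle of cldn4l minus cycle of cldn7b (cycles) of each fish by row label, coloured by diet, with the mean of 5 diets as a bar. Right, the mean cycle of each gene over 5 diets by row label; the gap between cldn4l and cldn7b is at most 0.37 cycles for A1 to A6 and at least 0.53 for A7 to A12.

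To ask whether the members changed together, their cycles were correlated over the 60 fish within diets, with fish shuffled within diets for the p-value. Given the eef1a cycle, taken as the measure of input, r was 0.17 (permutation p = 0.234; rho = 0.09, permutation p = 0.516), and 0.11 without the 2 fish farthest from the median. In single diets this r was -0.01 in CT, 0.31 with GB5, 0.03 with GB10, -0.09 with the GH5 diet and 0.26 with the GH10 diet (n = 12 fish each, permutation p adjusted over 5 diets 0.967 for each). By this measure no common variation of the members was detected.

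Other measures of the same fish gave other values. Without a reference, r was 0.23 (permutation p = 0.108; rho = 0.16). In log2 relative expression r was 0.49 (permutation p = 0.00025; rho = 0.43), and there both genes share the same eef1a cycle, which was subtracted from each. Relative to the mean of 8 other target genes it was 0.84 (54 fish, permutation p = 1e-05, the smallest that could be given), with that mean shared likewise. With the means of the row labels removed as well, the r given eef1a was 0.48 (rho = 0.50). The label was taken up because the ratio varied with it, and removing what sets the members apart raises r by construction, so that this value is a description. In all, 15 correlations were computed with a p.

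**Figure D5:**
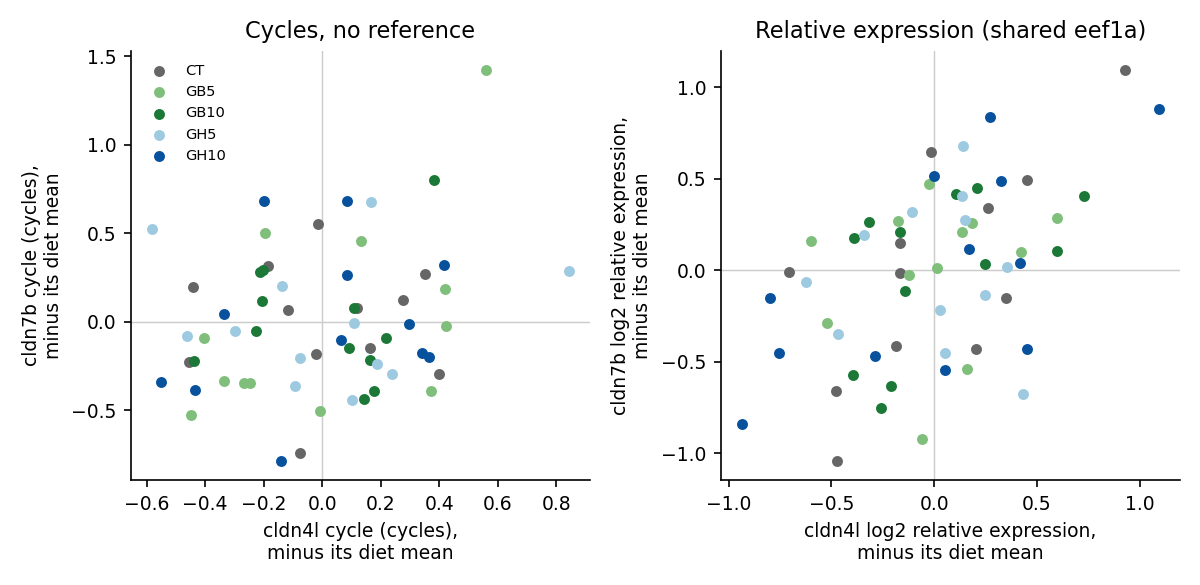
Each point is a fish, with cldn4l on the horizontal and cldn7b on the vertical axis, both minus the mean of its diet. On the left are cycles without a reference (r = 0.23), on the right log2 relative expression, in which both genes share eef1a (r = 0.49).

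The reference gene added scatter to both members. The SD within diets was 0.322 cycles for cldn4l, 0.417 for cldn7b and 0.386 for eef1a, and it was 0.434 for cldn4l and 0.486 for cldn7b after the eef1a cycle had been subtracted. The correlation of the cycle with eef1a within diets was 0.26 for cldn4l (permutation p = 0.0431, rho = 0.28) and 0.27 for cldn7b (permutation p = 0.0389, rho = 0.24). Each had an adjusted p of 0.0575 over 4 correlations. The other 2 used a second list of eef1a cycles and were negative. They were -0.21 for cldn4l (permutation p = 0.117) and -0.31 for cldn7b (permutation p = 0.0184, adjusted 0.0575). The second list, which stands with the occludins, has all 60 cycles of the first in another order, with 1 fish alike in both. Only 15 of the 60 cycles stand under the same diet in both lists. It therefore gives no second measurement. If the first list follows the fish order of the members, the second pairs a fish with the eef1a cycle of another fish, mostly of another diet. Which list follows that order was not tested. The correlation of the second list with cldn7b was no smaller in size than those with the first list. The deposited relative expression of both members equalled the value recomputed with the first list in 60 of 60 fish and with the second in none.

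The genes whose cycles within diets were most like those of cldn4l, given eef1a, were cldn5 (r = 0.31, 60 fish), il10 (r = 0.30, 57 fish) and tlr9 (r = 0.28, 60 fish). For cldn7b they were cldn5 (r = 0.33, 60 fish), cd4 (r = 0.29, 60 fish) and il10 (r = 0.29, 57 fish). Encoding another claudin, cldn5 headed both lists, whereas cldn7b was rank 6 of 9 for cldn4l and cldn4l was rank 4 of 9 for cldn7b. The claudins did not stand together in the lists, as cldn15 was rank 9 of 9 for cldn4l (r = 0.0005) and for cldn7b (r = -0.05). All these values are weak and rest on fish that share the eef1a measurement.

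The spread among fish was also compared among diets. The SD of log2 relative expression of cldn4l ran from 0.33 in GH5 to 0.60 in GH10, and that of cldn7b from 0.39 in GH5 to 0.60 in CT. A difference of spread among the 5 diets was not detected for cldn4l (permutation p = 0.334), for cldn7b (permutation p = 0.360) or for their ratio (permutation p = 0.975), against 14.3% of the 14 genes under 0.05. Those genes were tlr9 (permutation p = 0.0123) and cldn15 (permutation p = 0.0412), and neither was called after adjustment over 14 genes.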

How the data were processed

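Real-time qPCR was run in duplicate wells on RNA of the anterior intestine. The authors deposited 1 quantification cycle per fish and gene, a log2 scale that was not normalized, and a relative expression, a ratio computed by the authors as 2 to the power of minus ΔΔCT over eef1a and the mean of CT fish. A table of the authors' fold changes between groups was not used. The cycle threshold is not given in the sources used here. The study removed outliers by the ROUT method, and both members have a value in all 60 fish.

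Fish were grouped by the diet of their column. log2 relative expression was tested with 100000 permutations (fixed seed): one-way F over 5 diets, 2 x 2 terms, supplemented diets against CT, and 10 pairs of diets with the largest statistic as adjustment. The study's methods use analysis of variance at 0.05. Intervals of 95% came from the pooled variance. The 3 occludins were left out of gene ratios and correlations, because their eef1a list does not follow the same order of fish. The gene igm was left out of them because 20 of its cycles equal cldn15 cycles. Besides the members, the 3 genes most correlated with each and genes beside them in level were named. Members, lists and rules were chosen with earlier results of these data known.

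The alternatives were the linear scale, ranks, the reciprocal, values recomputed from cycles, other references and the second eef1a list. Others used the 45 fish with a relative expression of every gene, or left out values beyond 1.5 interquartile ranges or each fish in turn. Further ones were limma and Benjamini-Hochberg adjustment. The tests on the row label, the row label as a block, each other gene as the reference, and the alternatives of scale and fish for the pairs of diets and the spread were added after seeing the data. Fish of the same label correlated above 0.1 in 10 of 10 pairs of diets for the ratio, in 4 for cldn4l and in 7 for cldn7b; nothing in the files says that labels pair fish. The tests were tested on simulated data. Python 3.11.15, numpy 2.4.6, scipy 1.17.1, pandas 2.3.3, matplotlib 3.10.9, R 4.3.3 and limma 3.58.1 were used.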

Additional observations from a re-analysis of the deposited data

Results flagged for a closer look

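The dose difference of cldn4l with LB-GUThealth minus that with LB-GREENboost was 0.67 on the log2 scale (permutation p = 0.00918). It was not called after adjustment over 14 genes (0.129), nor before it without a reference (permutation p = 0.0641), over the mean of 8 other genes (permutation p = 0.207) or in the fish with every gene (permutation p = 0.0641). For the cldn7b to cldn4l ratio the same interaction was -0.585 cycles (permutation p = 0.0380), with an adjusted p of 0.895 over 45 gene pairs, of which 2.22% were under 0.05 before adjustment. Its p was above 0.05 with limma (0.0557), on ranks (permutation p = 0.0505), in the fish with every gene (permutation p = 0.140) and on leaving out any 1 of 17 fish. Both results use the same cldn4l cycles and are not independent.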

How the results depend on the processing

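Of 202 alternative values, 163 kept their direction and their side of 0.05. Some of these could not differ, so that the count overstates the stability. The values recomputed from cycles equalled the deposited ones in 60 of 60 fish, and no value of the ratio was left out as outlying. All p-values here are from permutation tests except limma's. For cldn4l, the one-way p was 0.0740 on cycles without a reference, 0.0552 with limma, 0.331 over the mean of 8 other genes, 0.136 in the fish with every gene, 0.0587 on the reciprocal, and 0.0160 to 0.0886 leaving out each fish. Its interaction p was 0.0641 without a reference, 0.207 over the 8 genes and 0.0641 in the fish with every gene. Its dose difference changed sign without a reference (permutation p = 0.387), and its ingredient difference on the linear scale (p = 0.927) and in the fish with every gene (p = 0.844).

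For cldn7b, the sign changed for dose without a reference (permutation p = 0.640) and for the interaction without a reference (p = 0.389) and on ranks (p = 0.982). For the ratio, the interaction p was 0.0557 with limma, 0.140 in the fish with every gene, 0.0505 on ranks and 0.0126 to 0.0662 leaving out each fish. Its one-way p was 0.0244 to 0.183 and its ingredient p 0.0383 to 0.165 leaving out each fish, and with the row label as a replicate block they were 0.0107 and 0.0452. Its dose difference changed sign on the linear scale (permutation p = 0.912), on ranks (p = 0.987) and in the fish with every gene (p = 0.153), and 1 pair of diets was called on the linear scale. The causes were not tested.

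The second eef1a list holds the cycles of the first in another order, with 15 of 60 under the same diet. Which list follows the fish order of the members was not tested. If the first does, as the deposited relative expression takes it, the second pairs each member with the eef1a of other fish. Its values then say nothing on the choice of reference. With it the permutation p for cldn4l was 0.1003 in the one-way test, 0.475 for the interaction, 0.0322 for supplemented against CT and 0.509 for dose, whose sign changed. For cldn7b the sign changed for dose (permutation p = 0.666), ingredient (p = 0.936) and the interaction (p = 0.385).

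The correlation of the members was 0.84 over the 8 genes and 0.49 in log2 relative expression, and with the label as a replicate block 0.53 without a reference and 0.48 given eef1a. After Benjamini-Hochberg adjustment the number of genes called in the one-way test was 0, against 1 unadjusted. With 1 cycle per fish and gene, the error between wells of a fish was not estimated.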
